A study of Mus musculus with 10 samples.

Results

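The 10 genes described here encode the core of the BCL2 family of apoptosis regulators. They were chosen by gene symbol and are Bcl2, Bcl2l1, Mcl1, Bax, Bak1, Bcl2l11, Bid, Bbc3, Pmaip1 and Bad, 10 of the 22548 genes in the read count table. All 10 passed the filter on low counts. RNA-seq was performed on osteocytes, the cells embedded in bone matrix, to compare the transcriptome of these cells in mice with and without myeloma. All mice were labelled as C57BL/6 males of 8 weeks. The 5 MM mice had received an intrafemoral injection of vk12598 cells, a single transplantable murine myeloma line of Vk*MYC origin, and the 5 No MM mice were controls without myeloma cells. Each mouse gave 1 total RNA library. Osteocytes were released from marrow-depleted bone pieces by repeated collagenase and EDTA digestion, and the protocol used here names no cell sort.

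Apoptosis through mitochondria is set by the balance within this family. The pro-survival proteins BCL2, BCL-XL (Bcl2l1) and MCL1 bind and restrain their relatives, the effectors BAX and BAK (Bak1) open the outer mitochondrial membrane and release cytochrome c, and the BH3-only proteins BIM (Bcl2l11), BID, PUMA (Bbc3), NOXA (Pmaip1) and BAD trigger the effectors or block the pro-survival proteins. Osteocytes are long-lived, and their death is a known feature of myeloma bone disease, while plasma cells and myeloma cells depend strongly on MCL1.

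The libraries held 31099174 to 39466332 counted reads. Of these, No MM 3 and No MM 4 stood apart from the other 8. Immunoglobulin genes took 26.6% and 29.0% of their counts, against 0.637% to 3.86% in the other 8. The plasma cell markers (9 of 10 listed genes in the table) summed to 5950 and 6217 CPM (counts scaled by library size and TMM) in these 2 libraries, 414 to 488 in the 5 MM libraries and 418 to 730 in the other 3 No MM libraries, and 8 of the 9 were higher in both than in all other libraries. Myeloma is a tumor of plasma cells, so the highest plasma cell marker levels stood in libraries labelled as free of it. The 11 osteocyte markers were above 0 in every library but summed to 1664 and 1040 CPM in No MM 3 and No MM 4 against 6357 to 21209 in the other 8. Of the 11, 8 were lower in both than in all other libraries, and Sost, Mepe and Fgf23 were not. Col1a1, named after its values were seen, made up most of the sum, and the paper lists it among genes of osteoblast differentiation. It was at 1198 and 693 CPM in these 2 libraries and at 4973 to 18661 in the other 8. Neutrophil markers (13 of 13) summed to 7748 to 9052 CPM in these 2 libraries and to 11033 to 35193 in the other 8, and erythroid markers (9 of 11) to 949 to 3292 and 7820 to 61561. Marrow cell RNA was thus present in the other 8 as well. In MM 9 the neutrophil sum was 30926 CPM and the osteocyte sum 6357, and in MM 6 they were 11033 and 21209. Levels below are those of mixed bulk RNA, and the share from osteocytes was not tested. Y-linked genes summed to 142 CPM or more in 3 libraries and to at most 1.27 CPM in the other 7, although all mice were labelled male. Fold changes below are given with all 10 libraries and, for the members and the genes whose value moved most, also without No MM 3 and No MM 4.

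No member of the family passed an adjusted p-value of 0.05 between the MM and No MM osteocyte libraries, and the groups overlapped for all 10. The clearest pattern lay within the No MM group and was shared by many other genes. Bcl2, Pmaip1, Bbc3 and Bax were higher in No MM 3 and No MM 4 than in any other library, as were 24.0% of all tested genes. Bcl2l11 and Bak1 were lower there than in any other library, as were 20.7% of all tested genes. In the other 8 libraries Mcl1 was the highest member per gene length in 7.

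The promoters of Bcl2, Bax and Bbc3, of the 4 members that were high together, are shown to let their sequence be compared. Each line gives the 250 bases before the RefSeq start site in GRCm38.p6, 5′ to 3′ on the strand of the gene, with motif matches in capitals, and Pmaip1 is named only.
Bcl2 promoter, chr1:106714291-106714540, minus strand: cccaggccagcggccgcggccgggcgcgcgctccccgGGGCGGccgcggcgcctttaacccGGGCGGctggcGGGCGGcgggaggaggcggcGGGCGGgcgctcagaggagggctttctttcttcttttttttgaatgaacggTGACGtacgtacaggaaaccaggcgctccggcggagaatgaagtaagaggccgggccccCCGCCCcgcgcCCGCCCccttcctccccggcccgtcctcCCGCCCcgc
Bax promoter, chr7:45466899-45467148, minus strand: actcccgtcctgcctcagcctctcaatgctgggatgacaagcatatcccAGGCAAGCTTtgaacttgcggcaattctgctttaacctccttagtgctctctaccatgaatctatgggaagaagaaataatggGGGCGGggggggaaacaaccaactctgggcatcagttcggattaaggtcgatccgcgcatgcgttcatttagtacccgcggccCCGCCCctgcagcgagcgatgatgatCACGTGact
Bbc3 promoter, chr7:16309333-16309582, plus strand: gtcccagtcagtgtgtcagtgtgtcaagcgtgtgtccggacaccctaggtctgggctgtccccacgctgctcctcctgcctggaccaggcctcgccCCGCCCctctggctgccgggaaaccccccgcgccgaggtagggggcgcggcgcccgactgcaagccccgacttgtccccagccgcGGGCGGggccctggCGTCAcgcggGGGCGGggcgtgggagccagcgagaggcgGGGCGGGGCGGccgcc
The motifs searched on both strands were the GC box GGGCGG, the E-box CACGTG, the CRE core TGACG, the STAT motif TTCNNNGAA and the p53 decamer motif, and matches of the GC box that overlap each other were counted separately. The Bcl2 promoter held 7 GC boxes and 1 CRE core, and its G and C content was 74.8%. The Bax promoter held 1 p53 decamer that begins at position -201 from the start, 2 GC boxes and 1 E-box, at a G and C content of 54.0%. The Bbc3 promoter held 5 GC boxes and 1 CRE core, at 76.4%. Among 32851 promoter windows of the same length the GC box was found in 32.7%, the CRE core in 17.8%, the p53 decamer in 7.1%, the STAT motif in 7.0% and the E-box in 6.0%. Of the 9 members with a promoter in the table, 7 held a GC box, 2 the CRE core, 1 the p53 decamer, 1 the E-box and 0 the STAT motif. These matches describe letters in the window only.

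Bcl2 (ENSMUSG00000057329, chr1:106538178-106714274, minus strand), the founding pro-survival gene, measured 9.90, 31.7, 262.5, 262.3 and 34.5 CPM in No MM 1 to 5. In MM 6 to 10 it measured 37.3, 37.3, 29.7, 41.9 and 36.4 CPM. No MM 3 and No MM 4 were far above the 5 MM libraries, No MM 1 was below them, and No MM 2 and No MM 5 lay among them. The group means were 120.2 ± 130.2 (SD, n = 5) in No MM and 36.5 ± 4.38 in MM. The log2 fold change of MM over No MM was -1.72 (SE 0.760), with an adjusted p of 0.346 by edgeR's quasi-likelihood test and Benjamini-Hochberg adjustment over 16186 genes, and a two-sided exact permutation p of 0.421. Without No MM 3 and No MM 4 the log2 fold change turned to 0.51 (SE 0.346, edgeR adjusted p = 0.650). Bcl2 was 10.3 times higher in the mean of those 2 libraries than in the mean of the other 3 No MM libraries. Beside it stood the higher plasma cell and lower osteocyte marker sums given above, and the part of these cells in the difference was not tested. In bulk RNA, fewer cells of a type and less RNA per cell cannot be told apart.

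Mcl1 (ENSMUSG00000038612, chr3:95658721-95663176, plus strand), which encodes a short-lived pro-survival protein, measured 275.6, 308.0, 419.1, 461.9 and 339.9 CPM in No MM 1 to 5 and 289.0, 363.8, 455.6, 335.6 and 357.1 CPM in MM 6 to 10. The groups covered nearly the same range, and No MM 4 was only just above MM 8. The means were 360.9 ± 77.6 CPM (SD, n = 5) for No MM and 360.2 ± 60.8 for MM. MM over No MM was -0.0028 on the log2 scale (SE 0.203, edgeR adjusted p = 0.997), and 0.21 (SE 0.189, edgeR adjusted p = 0.705) without No MM 3 and No MM 4. Mcl1 was 1.43 times higher in these 2 libraries than in the other 3 of the group, a smaller step than for Bcl2.

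Bcl2l1 (ENSMUSG00000007659, chr2:152780668-152831728, minus strand), the gene of BCL-XL, measured 205.0, 120.6, 106.4, 97.8 and 65.3 CPM in No MM 1 to 5. In MM 6 to 10 it measured 53.6, 88.3, 90.5, 118.5 and 104.8 CPM. Its highest value stood in No MM 1 and its lowest in MM 6, and No MM 3 and No MM 4 lay in the upper part of the MM range. No MM 1 also had the highest erythroid marker sum, 61561 CPM, against 7820 in MM 6. In No MM 3 and No MM 4 that sum was lower still, at 949 and 3292 CPM, without the lowest Bcl2l1. The part of erythroid cells in the Bcl2l1 level was not tested. The means were 119.0 ± 52.2 CPM (SD, n = 5) for No MM and 91.1 ± 24.3 for MM, with a log2 fold change of -0.39 (SE 0.301, edgeR adjusted p = 0.564) that was -0.54 (SE 0.361, adjusted p = 0.650) without the 2 libraries. Without No MM 1 alone it was -0.10.

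**Figure D1:**
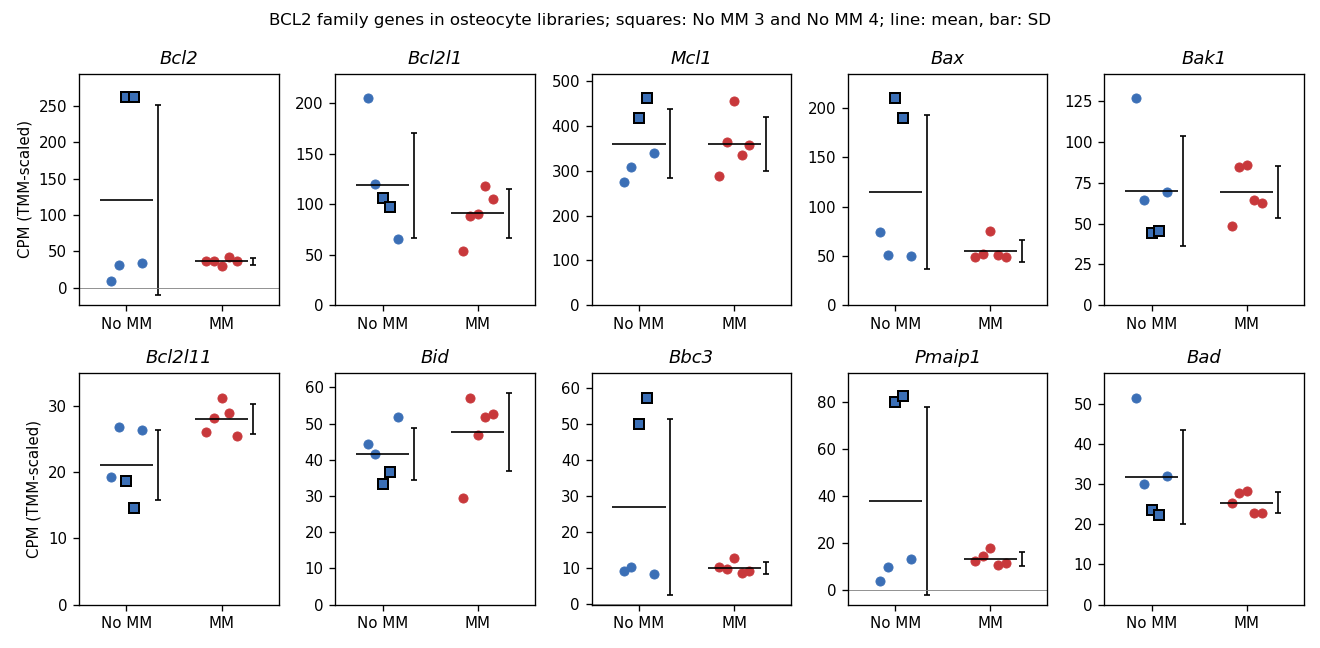
CPM of each of the 10 genes (vertical axes, linear and starting at or below 0) in the 5 No MM (blue) and 5 MM (red) libraries. Each point is 1 library, squares are No MM 3 and No MM 4, the line is the group mean and the bar is 1 SD on each side. Bcl2, Bax, Bbc3 and Pmaip1 show both squares above all other points, and the MM and No MM points overlap in every panel.

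Of the effectors, Bax (ENSMUSG00000003873, chr7:45461695-45466898, minus strand) measured 73.7, 51.3, 209.7, 189.5 and 50.3 CPM in No MM 1 to 5 and 49.0, 51.5, 74.8, 51.2 and 48.4 CPM in MM 6 to 10. No MM 3 and No MM 4 were the high libraries again, and the other 8 formed a tight set near 50 CPM with No MM 1 and MM 8 somewhat above it. The means were 114.9 ± 78.2 CPM (SD, n = 5) for No MM and 55.0 ± 11.2 for MM. Its log2 fold change was -1.06 (SE 0.416, edgeR adjusted p = 0.315), the two-sided exact permutation p was 0.135, and without No MM 3 and No MM 4 the log2 fold change was -0.11 (SE 0.201, edgeR adjusted p = 0.840).

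Bak1 (ENSMUSG00000057789, chr17:27019810-27029009, minus strand), the other effector, went the other way in these 2 libraries. It measured 126.8, 64.6, 44.3, 45.3 and 69.2 CPM in No MM 1 to 5 and 48.3, 84.9, 85.8, 64.4 and 62.7 CPM in MM 6 to 10. No MM 3 and No MM 4 held the lowest values of all 10 libraries and No MM 1 the highest, so the No MM group spanned the whole MM range. MM over No MM was -0.02 on the log2 scale (SE 0.294, edgeR adjusted p = 0.986), and -0.35 (SE 0.273, edgeR adjusted p = 0.671) without the 2 libraries. Bak1 lies wholly within Ggnbp1 on the opposite strand, which had 1994 counts over all libraries against 24455 for Bak1, and the strand setting of the counting was not given in the sources used here.

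Among the BH3-only genes, Bbc3 (ENSMUSG00000002083, chr7:16309616-16318205, plus strand), which encodes the p53 target PUMA, measured 9.10, 10.2, 50.0, 57.3 and 8.31 CPM in No MM 1 to 5. In MM 6 to 10 it measured 10.1, 9.62, 12.7, 8.49 and 9.0 CPM. All libraries but No MM 3 and No MM 4 lay between 8.31 and 12.7 CPM. For Bbc3 the log2 fold change was -1.43 (SE 0.565, edgeR adjusted p = 0.318) with 10 libraries, and it turned to 0.10 (SE 0.196, edgeR adjusted p = 0.861) without those 2.

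Pmaip1 (ENSMUSG00000024521), the gene of NOXA, whose protein binds MCL1, measured 3.77, 9.68, 80.1, 82.4 and 13.5 CPM in No MM 1 to 5 and 12.3, 14.5, 18.1, 10.8 and 11.5 CPM in MM 6 to 10. The same 2 No MM libraries were high and No MM 1 was the lowest of all. The log2 fold change was -1.49 (SE 0.727, edgeR adjusted p = 0.379, two-sided exact permutation p = 0.437), and it turned to 0.57 (SE 0.366, edgeR adjusted p = 0.650) without No MM 3 and No MM 4. The mean of these 2 libraries was 9.05 times that of the other 3 No MM libraries for Pmaip1, 5.82 times for Bbc3 and 3.42 times for Bax.

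Bcl2l11 (ENSMUSG00000027381, chr2:128126038-128162547, plus strand), which encodes BIM, a binder of all pro-survival members, measured 19.3, 26.8, 18.7, 14.6 and 26.4 CPM in No MM 1 to 5. In MM 6 to 10 it measured 26.2, 28.3, 31.3, 29.0 and 25.5 CPM. No MM 1, No MM 3 and No MM 4 lay below all MM libraries, and No MM 2 and No MM 5 lay among them. The means were 21.1 ± 5.30 CPM (SD, n = 5) for No MM and 28.04 ± 2.30 for MM. The log2 fold change was 0.41 (SE 0.188, edgeR adjusted p = 0.361) and the two-sided exact permutation p, not adjusted for the 10 genes, was 0.0476, where the smallest p that 5 against 5 mice can give is 0.00794. The log2 fold change was 0.20 (SE 0.154, edgeR adjusted p = 0.676) without No MM 3 and No MM 4.

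Bid (ENSMUSG00000004446, chr6:120891930-120916853, minus strand), which caspase-8 cleaves to link death receptors to mitochondria, ranged from 33.4 to 51.9 CPM in No MM and from 29.4 to 57.1 CPM in MM, with medians of 41.5 and 51.9. Its log2 fold change was 0.19 (SE 0.197, edgeR adjusted p = 0.663), and 0.03 (SE 0.213) without No MM 3 and No MM 4. The last 913 bases of the gene overlap Bcl2l13 on the opposite strand, itself a family gene with 29908 counts over all libraries against 15946 for Bid.

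Bad (ENSMUSG00000024959, chr19:6941861-6951898, plus strand), whose protein is held inactive by survival kinases, measured 51.6, 30.0, 23.7, 22.3 and 32.1 CPM in No MM 1 to 5 and 25.3, 27.7, 28.3, 22.7 and 22.9 CPM in MM 6 to 10. No MM 1, 2 and 5 were above every MM library, and No MM 3 and No MM 4 fell within or below the MM range. Bad had a log2 fold change of -0.33 (SE 0.228, edgeR adjusted p = 0.509) with all libraries, and -0.09 without No MM 1 alone. Without No MM 3 and No MM 4, where the 3 remaining No MM libraries all exceeded the 5 MM libraries, as the groups did without overlap in 1 of 10 members and in 3.89% of all tested genes, it was -0.60 (SE 0.204) with an unadjusted edgeR p of 0.0158 and an adjusted p of 0.643. Bad shares 590 bases with Gpr137 on the opposite strand.

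**Figure D2:**
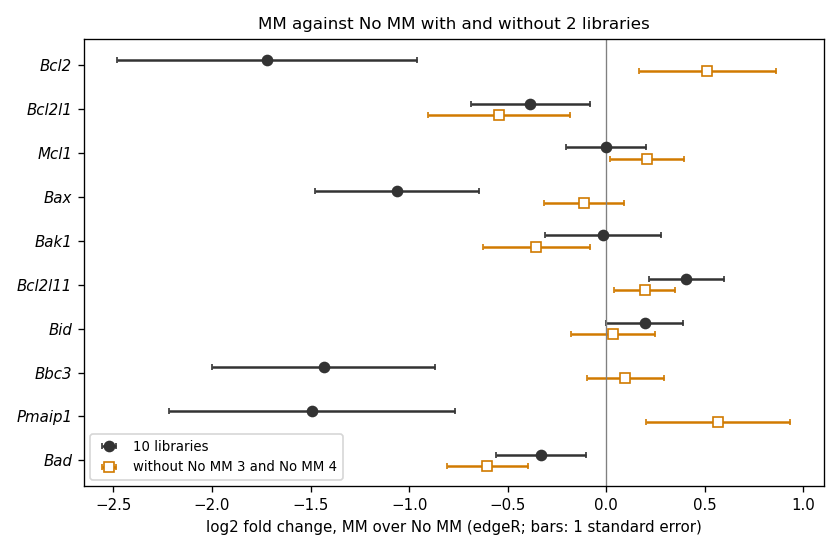
Log2 fold change of MM over No MM (horizontal axis) for the 10 genes, from edgeR, with bars of 1 standard error. Filled circles use all 10 libraries and open squares leave out No MM 3 and No MM 4. Bcl2 moves from -1.72 to 0.51, Pmaip1 from -1.49 to 0.57 and Bbc3 from -1.43 to 0.10, while Bcl2l1 and Bad stay below 0.

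Over the whole family, 0 of 10 members passed the adjusted threshold with edgeR, where 0% of the 16186 tested genes did, 2281 genes had an unadjusted p under 0.05 and the smallest adjusted p of any gene was 0.315. At an unadjusted p under 0.05, 3 members (Bcl2, Bax and Bbc3) were lower in MM, against 10.3% of all genes, and 0 were higher, against 3.81%. DESeq2 passed 1.16% of genes and 0 members, and limma voom passed 0 genes, with 1555 at an unadjusted p under 0.05. The 2 groups had no overlap in 1.41% of genes and in 0 members. Without No MM 3 and No MM 4 the unadjusted test gave 1 lower member, Bad, against 3.37% of genes, and 0 higher, against 2.51%. The median log2 fold change of the 10 members went from -0.36 with 10 libraries to 0.06 with 8, while that of all tested genes was -0.03 and -0.02.

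Being extreme in No MM 3 and No MM 4 was common in the transcriptome. Both libraries were above all other 8 for 24.0% of the tested genes and below all other 8 for 20.7%. Among the members, 4 of 10 were above (Bcl2, Bax, Bbc3 and Pmaip1) and 2 of 10 were below (Bcl2l11 and Bak1), and Bcl2l1, Mcl1, Bid and Bad were neither. These counts are a description, without a test.

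**Figure D3:**
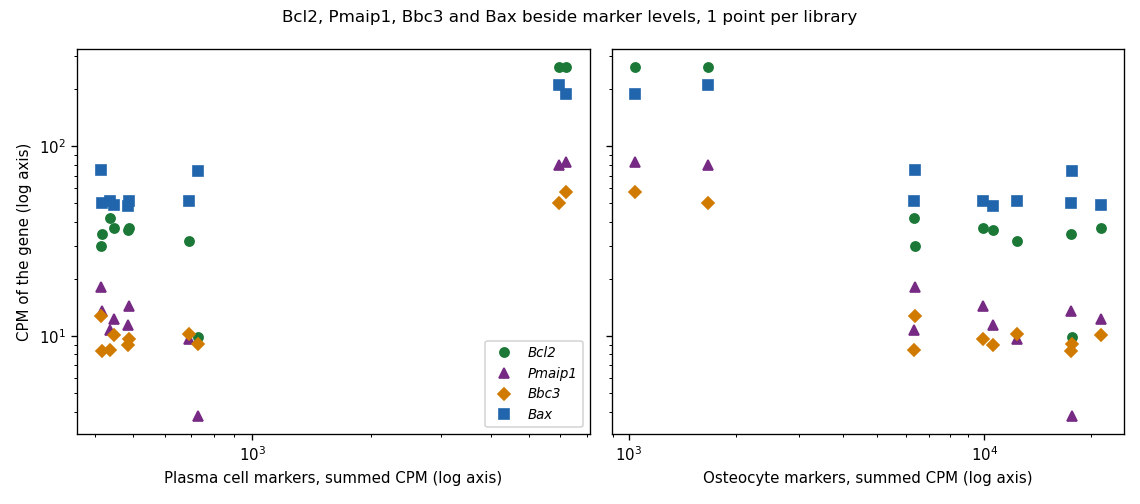
CPM of Bcl2, Pmaip1, Bbc3 and Bax (vertical axis, log scale) against the summed CPM of plasma cell markers (left, log scale) and osteocyte markers (right, log scale), 1 point per gene and library. The 2 libraries at 5950 and 6217 CPM of plasma cell markers, No MM 3 and No MM 4, hold the highest values of all 4 genes. They also hold the lowest osteocyte marker sums, which are mostly Col1a1, and no library lies between them and the other 8. The 4 genes shown are the members that were above all other libraries in these 2, so their position was fixed by the choice. The other members are not shown.

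Levels were compared between genes per kilobase of gene length (RPKM, from TMM-scaled counts and the deposited gene length). By the median over 10 libraries, the order of RPKM levels was Mcl1 (99.99), Bax (59.1), Bcl2l1 (39.4), Bak1 (27.0), Bid (18.9), Bad (18.3), Bbc3 (5.45), Bcl2l11 (5.21), Bcl2 (5.12) and Pmaip1 (4.88). The RPKM ranges of all neighbours in this order overlapped. Within libraries, Bax exceeded Bcl2l1 and Bak1 exceeded Bid in all 10, Mcl1 exceeded Bax in 7 and Bad exceeded Bbc3 in 8, whereas Bid exceeded Bad in 3. The 4 lowest genes, Bbc3, Bcl2l11, Bcl2 and Pmaip1, had medians between 4.88 and 5.45 RPKM and changed places from library to library.

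The order differed in No MM 3 and No MM 4. Bax, at 241.3 and 218.1 RPKM, stood above Mcl1, at 120.3 and 132.6, in these 2 libraries, while in the other 8 libraries Bax ranged from 55.7 to 86.0 RPKM. Bcl2 was the fourth highest member there, at 36.5 RPKM in both, and the seventh to the tenth in the other 8, at 1.38 to 5.83. Bcl2l11 was the lowest member in both, at 3.71 and 2.89 RPKM.

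**Figure D4:**
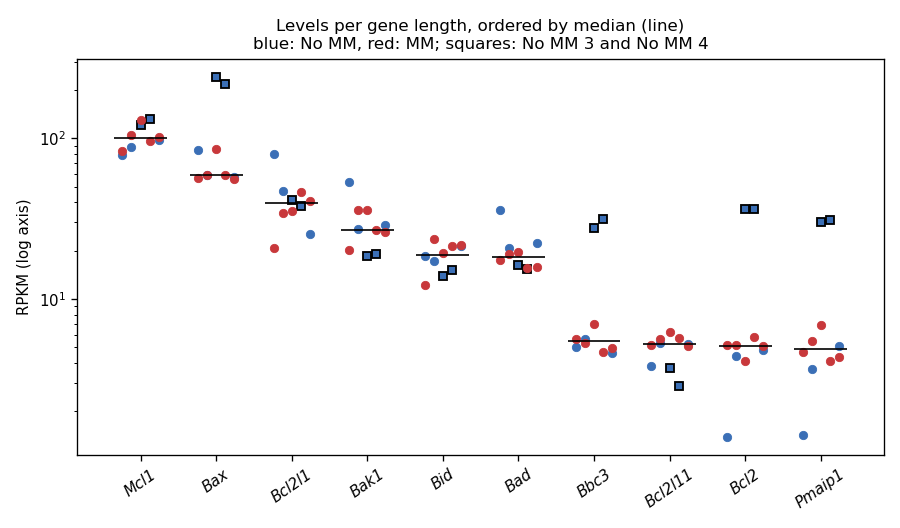
RPKM (vertical axis, log scale) of the 10 genes, ordered by their median over 10 libraries (line). Each point is 1 library (blue No MM, red MM), and squares are No MM 3 and No MM 4. Mcl1 has the highest median, 99.99 RPKM, and the squares leave the other points upward for Bax, Bbc3, Bcl2 and Pmaip1.

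The RNA levels of the 3 classes were also compared as ratios of RPKM. These ratios describe mixed bulk RNA, and the balance between the proteins was not measured. The effectors Bax and Bak1 together came to 1.31 and 1.14 times the 3 pro-survival genes in No MM 3 and No MM 4, to 0.616 to 0.861 times in the other 3 No MM libraries and to 0.552 to 0.717 times in MM. The ratio of Bax to Bak1 was 13 and 11.5 in the 2 libraries and 1.598 to 2.78 in the other 8. The ratio of Bax to Bcl2 was lower there, at 6.61 and 5.98, than in the other 8, at 10.1 to 61.6, and Bcl2 differed by more than Bax. The BH3-only genes took 16.7% to 17.8% of the summed RPKM of the 10 members in the 2 libraries and 16.8% to 21.4% in the other 8. In the other 8 libraries the MM and No MM values of these ratios and shares overlapped.

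The other 16 family genes in the table were less abundant for the most part, and 13 were tested. None passed the adjusted threshold, 0 were higher and 2 lower in MM at an unadjusted p under 0.05 (3.81% and 10.3% of all tested genes), 0 were higher and 0 lower with 8 libraries, and the median log2 fold change was -0.02 (-0.09 with 8 libraries). Of those with the highest median RPKM, Bnip3l, a mitophagy receptor, ranged from 78.5 to 288.4 CPM in No MM and from 145.5 to 274.4 in MM (log2 fold change 0.31, edgeR adjusted p = 0.701), and its log2 fold change turned to -0.13 without No MM 3 and No MM 4. Bnip3, its relative induced by hypoxia, ranged from 19.9 to 44.5 and from 11.3 to 41.2 CPM (log2 fold change -0.46, edgeR adjusted p = 0.523, -0.37 with 8 libraries). Bcl2l13 ranged from 73.7 to 130.7 and from 65.2 to 82.9 CPM (log2 fold change -0.31, edgeR adjusted p = 0.416, -0.38 with 8 libraries).

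The 2 lower family genes were Bik and Bcl2l14. Bik, a BH3-only gene of the endoplasmic reticulum, was at 5.17 to 5.30 CPM in No MM 3 and No MM 4, at 1.45 to 2.51 in the other 3 No MM libraries and at 0.827 to 2.10 in MM (log2 fold change -1.36, edgeR adjusted p = 0.315, -0.61 with 8 libraries). Bcl2l14 was at 8.27 to 12.8 CPM in No MM 3 and No MM 4 and at 0.343 to 1.46 in the other 8 (log2 fold change -2.48, edgeR adjusted p = 0.332), and without those 2 libraries its log2 fold change was 0.89. Bcl2l12 was also above, and Bnip3l and Bcl2a1b below, all other libraries in these 2. Bcl2a1a, Bcl2a1b and Bcl2a1d are near-identical copies, so the division of reads between them is uncertain.

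Of 47 other genes of the apoptosis pathway in the table, upstream regulators, caspases, mitochondrial factors and death receptor genes, 44 were tested and 0 passed the adjusted threshold. At an unadjusted p under 0.05, 7 were lower and 0 higher in MM, against 10.3% and 3.81% of all tested genes, and these 44 genes had a median log2 fold change of -0.12. Without No MM 3 and No MM 4, 2 were lower (Cdkn1a and Bag1) and 3 higher (Birc2, Birc3 and Cflar), against 3.37% and 2.51% of all tested genes, the 5 names being chosen after their values were seen. The 6 with the smallest p were Mtch2, a mitochondrial receptor for BID (log2 fold change -0.42), Bcap31 (-0.46), Parp1, a DNA repair enzyme cleaved by caspases (-0.56), Cycs, cytochrome c (-0.42), Endog, a mitochondrial nuclease (-0.65), and the death receptor gene Tnfrsf10b (-1.27), with edgeR adjusted p values from 0.315 to 0.334. Fadd was the seventh, at -0.51. Without No MM 3 and No MM 4 these were -0.33, -0.48, -0.28, -0.31, -0.62, -0.01 and -0.34, in the same order.

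The apoptosome genes, which act after BAX and BAK, showed no difference past the threshold. Apaf1 had a log2 fold change of 0.23 (edgeR adjusted p = 0.568, 0.13 with 8 libraries). Casp9, the initiator caspase, had 0.21 (edgeR adjusted p = 0.609), which turned to -0.03 with 8 libraries. Trp53, the gene of p53, was at 121.2 and 119.9 CPM in No MM 3 and No MM 4, above the other 8 libraries at 60.1 to 104.9 (log2 fold change -0.47, edgeR adjusted p = 0.371, -0.19 with 8 libraries). Of the 44 genes, 11 were above all other libraries in both No MM 3 and No MM 4, among them Trp53, Cycs, Parp1 and Tnfrsf10b, and 10 were below, among them Casp9, shares close to the 24.0% and 20.7% of all tested genes. Mdm2 and Cdkn1a, chosen after their values were seen, were neither above nor below, while the members Bax, Bbc3 and Pmaip1 were above. A part of p53 in these levels was not tested.

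The members were also set against each other over libraries, as a description, since all points share their library and its scaling. The pairs named here were picked from all pairs of members after their values were seen. Mcl1 and Pmaip1 had a Spearman correlation of log2 CPM of 0.89 over 10 libraries and 0.81 over the 8 without No MM 3 and No MM 4. Bcl2 and Bad ran in opposite order, at -0.81 in both sets, and Bcl2 and Bak1 were at -0.81 over 10 libraries and -0.62 over 8. Bax and Bak1 were at -0.04 over 10 libraries and 0.88 over 8, so their order was alike only outside No MM 3 and No MM 4. The 2 tested genes most alike in rank over 10 libraries were Fam227a (1.0) and Frmd5 (0.99) for Bcl2, Psmd5 and Snrnp200 for Bcl2l1, Ctage5 and Zfp710 for Mcl1, Rab20 and Rnh1 for Bax, and Rnpep and Kcnk12 for Bak1. For the BH3-only genes they were Gm16685 and Pip4k2a for Bcl2l11, Orm1 and Ly6g5b for Bid, Idh1 and Leng9 for Bbc3, Zfp429 (1.0) and Fam161b for Pmaip1, and N6amt2 and Vim for Bad, all with a Spearman correlation of at least 0.95. They were picked as the highest among 16186 tested genes over only 10 libraries, so high values follow from the choice. Their Pearson correlations ranged from 0.73 (Fam227a for Bcl2) to 0.99 (Fam161b for Pmaip1).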

How the data were processed

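Reads were checked with FastQC 0.11.5 and aligned with STAR, as the submitters' processing notes list. The counting tool, its strand setting, the genome build and the annotation are not given in the sources used here. The authors deposited raw read counts per gene for 10 libraries, and these were the values analyzed. They also deposited a normalized signal, each count divided by 1 size factor per library (0.765 to 1.20), and FPKM made from the counts and the gene length, and neither was used. The log2 fold changes and p-values that the authors deposited are their own comparison and were not used.

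From the counts, MM was compared with No MM by the quasi-likelihood test of edgeR 4.0.16 (R 4.3.3), without covariates, after filterByExpr and TMM scaling, with Benjamini-Hochberg adjustment over 16186 genes. TMM assumes that most genes are equal, and in libraries where immunoglobulin genes take a large share of the reads the CPM of other genes depend on it. DESeq2 1.42.0 and limma 3.58.1 (voom with quality weights) were alternatives, with other size factors, filters, covariates and each library left out. Leaving out No MM 3 and No MM 4 with DESeq2 and limma was added after seeing the data. Single genes were also compared by exact permutation over 252 assignments. A count of 3 corresponds to 0.0760 to 0.0965 CPM, for counting error only. The scripts were tested on simulated data. RefSeq promoters matched 9 of 10 members by symbol, with Python 3.11.15. Their start sites lay 0 to 33 bases from those in the table, and 382 for Bak1, which is not shown.

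The members and all lists were chosen with earlier results of these data known. Named genes were the 10 members, the family genes with the 3 highest levels per length or an unadjusted p under 0.05, the 6 pathway genes with the smallest p, Apaf1, Casp9, Cycs and Trp53, and the 2 genes most alike to each member. No other genes were named unless stated or counted in a group of 5 or fewer.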

Additional observations from a re-analysis of the deposited data

Results flagged for a closer look

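Among 64 sets of 5 libraries (the 10 members, the 13 tested family genes and 9 named pathway genes, in each group), 7 held a library far from the other 4 by Dixon's test at 95%, where chance gives 3.2, since it picks about 1 in 20. Bax was at 74.8 CPM in MM 8, against 48.4 to 51.5 in the other 4 MM libraries. In the same library Bcl2a1a was at 23.7 CPM (others 1.80 to 4.03), Bcl2a1d at 42.9 (others 1.07 to 4.27) and Bcl2l15 at 6.69 (others 0.543 to 2.12). Bcl2a1a and Bcl2a1d are near-identical copies whose reads the counting can split between them. In MM 6, Bcl2l2, the gene of the pro-survival protein BCL-W, was at 42.4 CPM (others 25.0 to 28.7), Endog at 11.3 (others 5.62 to 7.16) and Apaf1 at 43.2 (others 68.4 to 72.9). No MM 3 and No MM 4 do not appear here because the test looks for a single distant library.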

How the results depend on the processing

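No member passed an adjusted p of 0.05 under any alternative run, and the smallest adjusted p of any member was 0.112, for Bax. Over 23 alternatives per gene, 190 of 230 member fold changes kept their direction and side of the threshold and 40 changed sign without passing the threshold. Without No MM 3 and No MM 4 the log2 fold change was 0.51 for Bcl2, 0.21 for Mcl1, 0.10 for Bbc3 and 0.57 for Pmaip1 with edgeR, 0.52, 0.22, 0.11 and 0.57 with DESeq2, and 0.29, 0.19 and 0.34 for Bcl2, Mcl1 and Pmaip1 with limma voom, where Bak1 was 0.0344. With immunoglobulin share as a covariate Bcl2 was 0.17, Mcl1 0.19, Bbc3 0.10 and Pmaip1 0.18, and with the neutrophil score Mcl1 was 0.0880 and Pmaip1 0.0422. Without a change of sign, that score moved Bcl2 to -0.01, Bbc3 to -0.43 and Bax to -0.51, and limma voom on 10 libraries gave -0.28 for Bcl2, -0.27 for Pmaip1, -0.51 for Bbc3, -0.46 for Bax and -0.07 for Bcl2l1. For Mcl1 and Bak1, both close to 0, small changes were enough: Mcl1 was 0.018 with DESeq2, RLE and upper quartile size factors, 0.0723 with limma voom, 0.011 without a filter, 0.015 with 10 counts in every library and 0.017 with the Y-linked score, and Bak1 was 0.0050 with DESeq2 and RLE factors, 0.00495 with 10 counts in every library, 0.0089 with upper quartile factors, 0.10 with limma voom and 0.018 with the Y-linked score. Leaving out 1 library at a time gave -0.10 to 0.10 for Mcl1 and -0.15 to 0.31 for Bak1, -2.02 to -1.22 for Bcl2, -1.25 to -0.73 for Bax, -1.66 to -0.96 for Bbc3 and -1.79 to -0.995 for Pmaip1, so no single library turned the last 4. It gave -0.54 to -0.10 for Bcl2l1 and -0.44 to -0.09 for Bad, both nearest 0 without No MM 1, 0.30 to 0.50 for Bcl2l11 and 0.12 to 0.33 for Bid, highest without MM 6. Beyond the turned signs, the cause of which was not tested, counts of genes past the threshold moved from 0 with edgeR (2281 at an unadjusted p under 0.05) to 179 with DESeq2, and without No MM 3 and No MM 4 to 4 with DESeq2 and 1 with limma voom, while it stayed 0 with edgeR (977 unadjusted). At an unadjusted p, 3 members and 9 family and pathway genes passed. No paired analysis was made because the labels give no pairing of MM with No MM mice. The paper calls its own differential analysis paired, without stating which mice would form the pairs.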
